A study of Mus musculus with 9 samples.

Results

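Cultured mouse mast cells whose surface IgE was cross-linked by antigen for 2 h were compared with cells that carried the same IgE and received no antigen. The comparison was made across every gene with at least 1 FPKM (fragments counted per kilobase of transcript and relative to library size) in 3 or more of these 6 libraries. That rule kept 10724 of 23951 gene symbols, after 3 symbols listed at 0 throughout a group (Eef1a1, Cdk8 and Ftl1) had been left out. The donors were wild-type C57BL/6 mice. Their marrow was cultured for 4 to 6 weeks in IL-3 and SCF (stem cell factor), each at 10 ng/ml, and the labels give over 95% of the cells as positive for the IgE receptor and CD117. The 3 IgE libraries came from cells that had received 0.5 µg/ml DNP-IgE for 18 h. The 3 antigen libraries came from cells given this IgE and then 50 ng/ml DNP-BSA, albumin carrying the hapten DNP, for 2 h. A further 3 libraries of untreated cells shared the estimate of spread in the test and are quoted as a reference level. Whether replicates were separate cultures is not in the labels, so p-values reflect the spread between these libraries alone, and that spread may be technical.

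Mast cells bind IgE through the high-affinity receptor FcεRI, and multivalent antigen that clusters the bound IgE activates the kinases Lyn and Syk around the receptor. The signal branches into calcium entry with calcineurin and NFAT, the MAP kinases with AP-1, Egr and SRF-dependent genes, and the NF-kB pathway. Stored granules are released within minutes, while cytokines, chemokines and enzymes of lipid mediators are made over the following hours from newly transcribed genes. The IL-3 and stem cell factor in the medium keep such cells growing and dividing.

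Promoter sequences are shown for 9 genes from 5 of the gene groups described below. These sequences are examples that hold a match and are no sample of their groups. They are RefSeq sequence of build GRCm38.p6, read from the stretch directly upstream of an annotated start and ending at the base before it, 5′ to 3′ along the gene, with the matched letters in capitals. Both strands were searched in the 250 bases before the start, of which the 100 to 200 nearest the start are printed. The matches described for these genes are those in the printed stretch. Where a gene has several annotated starts, the window with most matches was taken after the values of the genes had been seen.
Nfkb2 (kappaB; chr19:46304637-46304736, plus strand): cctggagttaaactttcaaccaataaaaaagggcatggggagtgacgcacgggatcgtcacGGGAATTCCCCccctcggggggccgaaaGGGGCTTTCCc
Nfkbia (kappaB; chr12:55492648-55492747, minus strand): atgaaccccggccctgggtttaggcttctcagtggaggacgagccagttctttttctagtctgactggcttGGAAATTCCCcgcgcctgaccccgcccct
Tnip3 (kappaB; chr6:65590298-65590397, plus strand): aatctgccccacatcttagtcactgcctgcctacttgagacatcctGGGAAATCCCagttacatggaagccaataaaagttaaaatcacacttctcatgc
Egr2 (CArG box; chr10:67537466-67537565, plus strand): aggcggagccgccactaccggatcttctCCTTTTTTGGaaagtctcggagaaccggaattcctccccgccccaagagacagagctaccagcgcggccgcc
Dusp5 (CArG box; chr19:53529045-53529144, plus strand): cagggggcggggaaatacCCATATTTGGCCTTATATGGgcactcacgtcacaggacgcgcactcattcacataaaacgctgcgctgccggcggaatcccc
Slc7a11 (ATF4; chr3:50443614-50443713, minus strand): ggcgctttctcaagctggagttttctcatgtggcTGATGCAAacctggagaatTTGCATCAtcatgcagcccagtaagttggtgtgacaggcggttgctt
Chac1 (ATF4; chr2:119351042-119351241, plus strand): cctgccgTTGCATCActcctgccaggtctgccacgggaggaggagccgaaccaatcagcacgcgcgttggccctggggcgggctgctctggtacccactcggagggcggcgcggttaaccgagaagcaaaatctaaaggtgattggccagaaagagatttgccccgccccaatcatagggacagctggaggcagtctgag
Cdc6 (E2F; chr11:98908001-98908150, plus strand): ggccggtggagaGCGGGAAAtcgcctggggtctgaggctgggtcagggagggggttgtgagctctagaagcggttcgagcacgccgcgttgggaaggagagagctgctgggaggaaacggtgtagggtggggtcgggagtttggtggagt
Mcm3 (CCAAT; chr1:20820313-20820442, minus strand): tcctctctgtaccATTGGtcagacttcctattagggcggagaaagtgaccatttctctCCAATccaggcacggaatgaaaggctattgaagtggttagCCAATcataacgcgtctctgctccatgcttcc
The kappaB motif is the recognition sequence of NF-kB and the CArG box that of serum response factor; both were searched by their consensus. The other motifs were searched as TGANTCA (AP-1), TGGAAA (NFAT), GCGNGGGCG (EGR), TTTNNCGC (E2F), TGATGNAA (ATF4) and CCAAT. In Nfkb2, 3 of the 4 kappaB matches overlap in 1 stretch, read on both strands 39 and 38 bases before the start, and the fourth lies 11 bases before it. The stretch of Tnip3 matched on both strands. In Dusp5 the CArG matches 82 and 72 bases before the start follow each other directly. Slc7a11 has 1 ATF4 match on each strand, 66 and 47 bases before the start.

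These letters were compared with all 32851 RefSeq windows of the same length. A kappaB match was present in 3.9% of all windows, in 4.39% of the windows of tested genes and in 10.2% of the 186 windows of genes at least 4-fold higher with antigen. The CArG box was found in 1.47%, 1.12% and 5.38% of these windows, and the AP-1 motif in 6.75%, 4.4% and 11.3%. Among the NF-kB genes that were at least 2-fold higher, 15 of 21 had a window and 50% of their 20 windows held a kappaB match. Among genes at least 2-fold higher in the list of amino acid supply and the ATF4 response, 30% of 20 windows held an ATF4 match. The share in windows of tested genes was 2%. In the 153 windows of cell-cycle genes that fell, 58.8% held CCAAT and 19.6% an E2F match, against 35.5% and 7.17% for tested genes. Windows of genes at least 2-fold lower held CCAAT in 42.6% and kappaB in 3.85%. Genes listed for NF-kB, ATF4 or the cell cycle may hold these motifs whether changed or not, and their unchanged members were not counted. The shares in these lists therefore cannot be tied to the change with antigen. Windows of 1 gene can overlap, and a match says only that these letters are present.

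**Figure D1:**
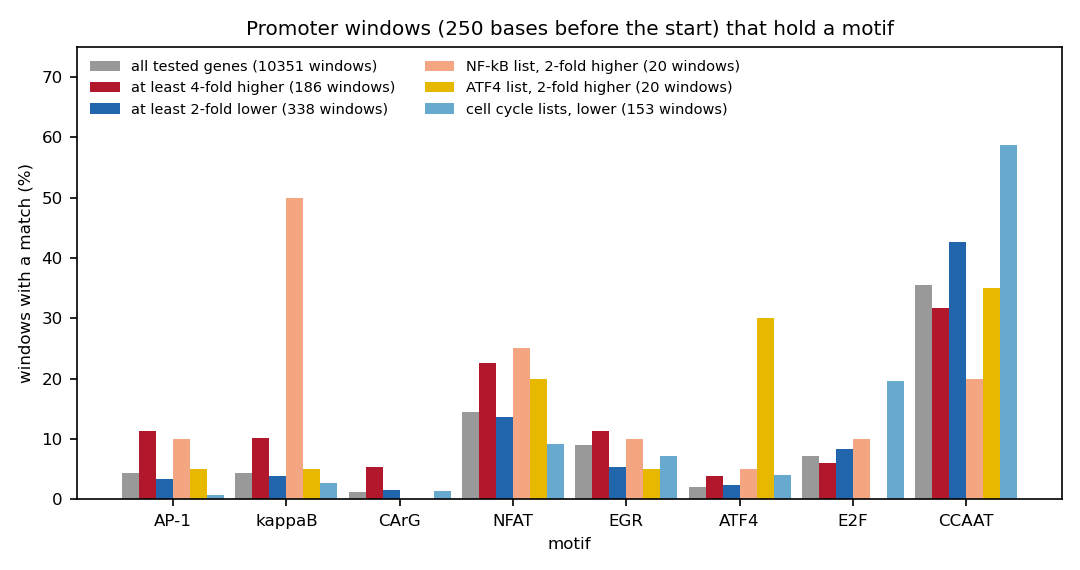
Share of promoter windows (250 bases before an annotated start, RefSeq GRCm38.p6) that hold each motif on either strand, in percent, for groups of genes defined by their change with antigen. The kappaB, CArG and AP-1 shares were higher in the windows of genes at least 4-fold higher with antigen (10.2%, 5.38% and 11.3%) than in those of all tested genes (4.39%, 1.12% and 4.4%), and the CCAAT share was highest in cell-cycle genes that fell (58.8%).

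The steps between the lowest FPKM values gave depths of 22.3 to 30.4 M reads (M stands for mega) with antigen and 34.5 to 42.2 M with IgE, and the part of this difference in the results was not tested. Counting error alone would give a gene of 1 FPKM on a 2 kb transcript a coefficient of variation of 10.9% to 15.0%. Antigen replicate 3 held a value of 0 for each of the 437 X-linked and 4 Y-linked genes that exceeded 0 elsewhere, and for 62 of 12965 such autosomal genes. Its X and Y zeros were treated as missing. The 333 tested X and Y genes therefore have 2 antigen libraries. IgE replicate 3 lay somewhat farther from its partners (SD of log2 differences 0.222) than the other 5 libraries (0.169 to 0.205). Of 12 mast cell markers, 10 were at 1 FPKM or more in all 6 libraries, while Cpa3 and Cma1 were listed at 0 in all 9. Fcer1a, Kit, Gata2 and Mitf were not called, while 5 of the mast cell markers were called higher and 1 lower. The lower one was Ms4a2, a chain of the IgE receptor, which fell from 1080 to 626 FPKM (log2 change −0.78). Summed markers of B cells, T cells and stromal cells were at most 0.161 FPKM in each library, and those of neutrophils ranged from 1.73 to 2.08 FPKM with IgE and from 0.796 to 2.35 with antigen. The 4 of 5 basophil markers present summed to 446 to 495 FPKM with IgE and 574 to 592 with antigen, and 5 dendritic cell markers to 0.2002 to 0.351 and 1.33 to 1.59 FPKM. Macrophage and monocyte markers, 4 of 9 at 1 FPKM in all 6 libraries, summed to 79.1 to 86.3 FPKM with IgE and 81.3 to 82.1 with antigen. Among them 2 were called higher and 2 lower. Cd14 rose from 0.714 to 3.45 FPKM and Cd68 from 16.1 to 30.2, while Lyz2 fell from 53.8 to 37.5 and Emr1 from 9.36 to 7.75. Megakaryocyte and platelet markers summed to 411 to 437 FPKM with IgE and 403 to 414 with antigen. Erythroid markers summed to 24.7 to 25.9 and 30.5 to 31.8, and eosinophil markers to 6.99 to 8.34 and 3.98 to 5.14. Some sums held opposite moves. Itga2b rose from 362.5 to 395 FPKM, while Gp5 fell from 55.6 to 10.3 and Gp9 from 4.52 to 2.92. Of the basophil markers, Cd200r3 rose from 344 to 492 FPKM and Prss34 fell from 92.1 to 54.7. The part of these sums in the results was not tested. For bulk RNA, more cells of a type and more RNA per cell cannot be told apart.

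Most tested genes differed between the antigen and the IgE libraries, in the main by small amounts. By limma's test on log2(FPKM + 1), 7947 of 10724 genes (74.1%) differed at an adjusted p under 0.05. Of these, 4087 genes (38.1% of those tested) were higher with antigen and 3860 (36.0%) were lower. At least 2-fold higher were 812 genes (7.57%) and at least 2-fold lower were 331 (3.09%). At 4-fold the counts were 185 (1.73%) and 15 (0.140%), so large changes lay mainly on the higher side. The other 6804 calls were under 2-fold. All 3 antigen libraries lay above all 3 IgE libraries for 4163 genes (38.8%) and below them for 3941 (36.7%), together 75.6%. These shares are the background for every gene list below. A list with similar shares higher and lower is near that background. A fold is the ratio of the FPKM means of both groups. A log2 change is a difference of log2(FPKM + 1) and is too small for genes of low level. The 2-fold and 4-fold classes are set on that log2 change, at 1 and 2.

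The genes at least 2-fold higher took 3.47% ± 0.17 (SD, n = 3) of the summed autosomal FPKM with IgE and 10.1% ± 0.098 with antigen. Those at least 2-fold lower took 1.4% and 0.463%. The summed FPKM of a library was 483794 to 524935 with IgE and 554415 to 575197 with antigen. Rescaling the libraries to equal sums moved the median log2 change of all tested genes from 0.01 to −0.15 and the share of calls that were higher from 51.4% to 33.7%, with 2646 higher and 5203 lower. Quantile normalization put that share at 42.1%. A small change shared by a whole gene family therefore depends on the scale.

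**Figure D2:**
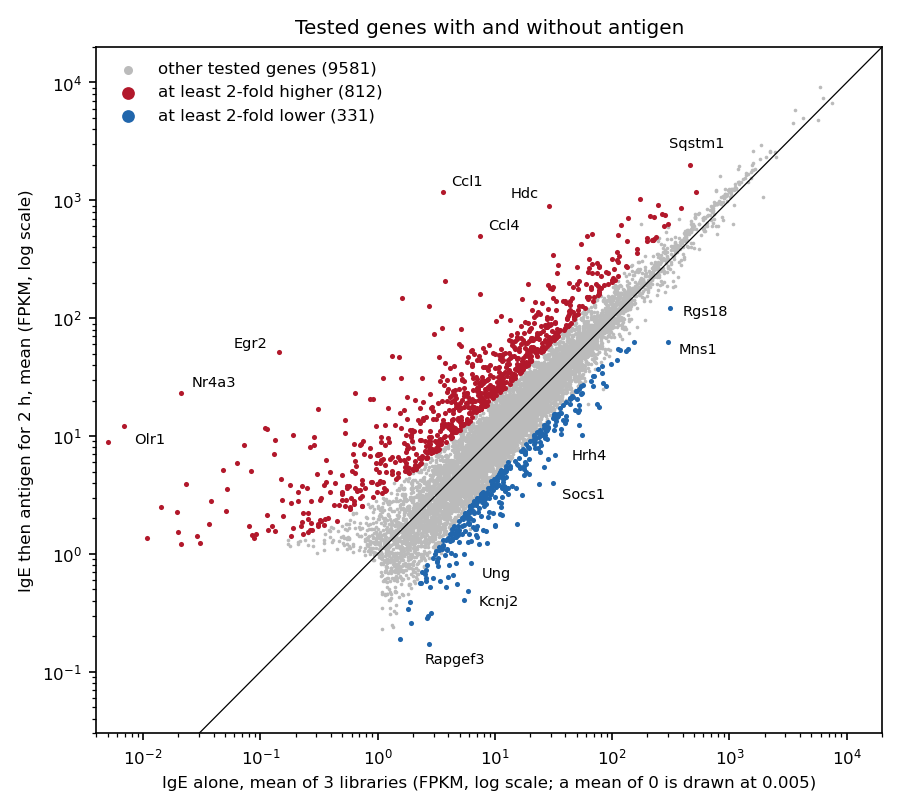
Mean FPKM of the 3 IgE libraries (x axis) against the 3 antigen libraries (y axis) for 10724 genes, both axes on a log scale. Red points are the 812 genes called at least 2-fold higher, blue points the 331 called at least 2-fold lower, grey points the others, and a mean of 0 is drawn at 0.005 FPKM.

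Secreted signals rose broadly. Of 48 listed cytokines and TNF family ligands, 23 passed the filter, 20 were higher and 10 (43.5%) were at least 2-fold higher. Of 31 chemokines, 13 passed and 8 (61.5%) were at least 2-fold higher. Growth factors and morphogens were split: of 18 tested, 11 rose and 6 fell. Genes under 1 FPKM with IgE could pass the filter only through the antigen libraries, so these list counts describe the members that passed and are no test of the list. Pdgfa, the A chain of platelet-derived growth factor, was at 4.36, 5.50 and 5.42 FPKM in the IgE libraries and 78.1, 86.6 and 78.1 in the antigen libraries. All antigen libraries lay far above all IgE libraries, a 15.9-fold ratio of means (log2 change 3.75, SE 0.081, limma adjusted p 3.3e-11). Untreated cells had a mean of 5.50 FPKM. Growth factors that act on vessels went both ways. Vegfc rose from a mean of 11.1 to 45.2 FPKM, Fgf2 from 4.77 to 17.5 and Vegfa from 20.5 to 54.4, while Vegfb fell from 13.6 to 8.98 and Angpt1 from 138 to 54.2. Sema4b, a membrane semaphorin, rose 6.11-fold to 23.9 FPKM. Csf1, the macrophage growth factor, rose 4.72-fold to 38.9 FPKM, Il1b 4.67-fold to 64.1 and Tnfsf10, which encodes the death ligand TRAIL, 3.65-fold to 33.0.

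Some secreted factors fell within the same 2 h. Il15, a growth factor of lymphocytes, was at 11.2, 10.2 and 8.82 FPKM with IgE and at 2.12, 1.30 and 1.84 with antigen. The 2 groups did not overlap, and the mean was 5.74-fold lower with antigen (log2 change −2.01, SE 0.110, limma adjusted p 3.7e-08). Osm, the IL-6 family cytokine oncostatin M, fell from 18.6 to 5 FPKM. Angpt1, the ligand of the Tie receptor on endothelium, fell from 138 to 54.3 FPKM and Gdf15, a stress-induced hormone, from 17.5 to 7.26. Among the chemokines Ccl7 rose 7.60-fold to a mean of 50.0 FPKM. Ccl5 was listed at 0, 0.303 and 0.0735 FPKM with IgE and reached 1.34, 1.94 and 1.94 with antigen.

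Genes of extracellular proteolysis and matrix binding formed another rising group. Of 21 tested secreted proteases, inhibitors and matrix genes, 15 rose, 3 fell and 8 (38.1%) were at least 2-fold higher. Plaur, the receptor of urokinase, was at 3.995, 3.66 and 4.104 FPKM with IgE and 29.9, 29.0 and 30.6 with antigen, 7.62-fold higher (limma adjusted p 3.63e-11), whereas urokinase itself, Plau, had a log2 change of −0.09. Adam8, a membrane metalloprotease, rose 6.22-fold to 136 FPKM. The hyaluronan receptor Cd44 rose 4.74-fold to 31.0 FPKM and the lectin Lgals3 3.99-fold to 294. Neither group overlapped the other in any of these 4 rising genes.

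Receptors for TNF family ligands and cytokines shifted in both directions. Of 42 tested cytokine and TNF family receptors, 25 rose, 11 fell and 13 (31%) were at least 2-fold higher. Tnfrsf12a, the TWEAK receptor, was at 1.57, 1.001 and 1.41 FPKM with IgE and at 47.5, 49.8 and 45.7 with antigen. The ratio of means was 35.95 and the log2 change 4.39 (SE 0.091, limma adjusted p 2.53e-11). Tnfrsf1b, the second TNF receptor, rose 6.84-fold to 30.8 FPKM and the death receptor Fas 8.87-fold to 12.4. Il9r rose from 9.08 to 40.5 FPKM, Il7r from 1.001 to 6.89 and Il10ra from 74.0 to 241. Il18r1, the ligand-binding chain of the IL-18 receptor, fell 2.38-fold to 8.06 FPKM while its partner Il18rap had a log2 change of 1.68. Tnfrsf21 fell 3.20-fold, Il4ra from 209 to 139 FPKM and Il5ra from 2.64 to 0.286. Of the growth-factor receptors that keep these cells alive, Kit (log2 change 0.08, or −0.27 with quantile normalization) and Il3ra (0.07) were not called.

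Receptors coupled to G proteins held large changes in both directions. Of 39 tested, 10 (25.6%) were at least 2-fold higher and 7 (17.9%) at least 2-fold lower. Hrh4, the histamine H4 receptor, was at 33.4, 33.8 and 30.9 FPKM with IgE and at 6.53, 6.89 and 7.13 with antigen. Every antigen library lay below every IgE library, 4.77-fold on the means (log2 change −2.10, SE 0.048, limma adjusted p 4.74e-11). The chemokine receptors Ccr2 (73.6 to 18.6 FPKM), Ccr3 (6.88 to 1.46) and Ccr1l1 (6.94 to 2.58) fell. They lie next to each other on chromosome 9 among the tested protein-coding genes. The succinate receptor Sucnr1 fell from 4.70 to 0.840 FPKM. Receptors for complement, adenosine and sphingosine-1-phosphate rose: C3ar1 3.12-fold to 56.2 FPKM, C5ar2 5.32-fold to 29.2, Adora2a 2.90-fold to 25.6 and S1pr3 from 0.228 to 3.78 FPKM.

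Surface proteins that restrain or costimulate lymphocytes mostly rose, 21 of 29 tested against 7 that fell, with 10 (34.5%) at least 2-fold higher. Havcr2 encodes the checkpoint receptor TIM-3. Its level was 62.5, 62.9 and 56.9 FPKM with IgE and 504, 488 and 501 with antigen, 8.19-fold higher with groups far apart (limma adjusted p 3.98e-12). The untreated mean was 62.4 FPKM. Cd274, which encodes PD-L1, rose 2.64-fold to 46.2 FPKM, and its chromosomal neighbour Pdcd1lg2 (PD-L2) also passed 2-fold. Cd244 rose 3.03-fold to 68.7 FPKM and the collagen receptor Lair1 fell 3.39-fold to 5.21. Of 28 tested integrins and adhesion genes 7 (25%) were at least 2-fold higher, led by Itga5, the alpha chain of the fibronectin receptor, from 3.89 to 19.8 FPKM.

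Immediate early factors, a class known for transcription that needs no new protein, were higher in 32 of the 37 tested, 22 of them (59.5%) by at least 2-fold. Egr2, whose promoter carries the CArG box shown above, was at 0.133, 0.125 and 0.175 FPKM with IgE and 52.8, 49.9 and 53.3 with antigen. Its relative Egr3 rose from 0.645 to 23.4 FPKM, and the Egr corepressor Nab2 was at 4.86, 5.16 and 5.53 FPKM with IgE and 54.8, 57.1 and 61.0 with antigen. Jund, an AP-1 subunit, rose 4.26-fold to 121 FPKM. Falls were few: Id3, an inhibitor of helix-loop-helix factors, fell 2.71-fold and Klf2 from 2.16 to 0.817 FPKM.

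NF-kB genes rose as a group, 30 of 40 tested against 4 that fell, and 21 (52.5%) were at least 2-fold higher. Nfkb2, the subunit of the noncanonical pathway, was at 9.60, 9.61 and 11.6 FPKM with IgE and 96.0, 97.8 and 92.7 with antigen (log2 change 3.10, SE 0.078, limma adjusted p 9.72e-11). Tnip3, a partner of the ubiquitin-editing protein A20, was at 1.38, 1.08 and 0.864 FPKM and then 31.1, 30.5 and 31.5. Antigen and IgE libraries were separated by a wide gap in both genes. Rel rose 2.91-fold to 24.9 FPKM. The kinase subunits that start the pathway moved little, Chuk (log2 change 0.08) without a call, Ikbkb (−0.14) and the X-linked Ikbkg (0.26, from 2 antigen libraries) with small calls.

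Genes of the JAK and STAT pathway and of interferon regulation went both ways, beside 38.1% higher and 36.0% lower over all tested genes. Of 31 tested, 15 rose and 10 fell, and their median log2 change of 0.13 turned to −0.05 with equal sums. Bcl6, a repressor that opposes STAT-driven genes, was at 1.62, 1.51 and 1.59 FPKM with IgE and 30.6, 30.5 and 33.0 with antigen, 19.96-fold higher (limma adjusted p 7.75e-12). Jak2, the kinase of the IL-3 receptor, was at 51.3, 50.0 and 48.4 FPKM and then 278, 271 and 274. Neither gene showed overlap between groups. Irf5 rose 8.32-fold to 52.4 FPKM, Stat5a 2.29-fold to 74.6 and Stat6 2.15-fold to 87.7. Among the feedback inhibitors of this pathway Cish rose 4.104-fold to 50.4 FPKM while Socs1 was at 25.4, 30.6 and 38.8 FPKM with IgE and 4.00, 4.52 and 3.56 with antigen, 7.85-fold lower.

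Factors that define the mast cell and blood lineages were split, 19 higher and 15 lower of 40. All tested genes were split too, 38.1% higher and 36.0% lower. The median of these factors was 0.13 and became −0.03 with equal sums and −0.11 with quantile normalization. Runx2 rose from 0.624 to 8.57 FPKM, Cebpb from 5.43 to 25.4 and Etv6 from 11.5 to 43.7. Erg, an ETS factor of stem cells and megakaryocytes, was at 28.0, 28.6 and 28.5 FPKM with IgE and at 6.11, 6.25 and 6.63 with antigen, 4.48-fold lower (limma adjusted p 6.08e-11). The LIM protein Lmo4 fell 3.25-fold to 15.9 FPKM. Gata2 was at 163, 162 and 263 FPKM with IgE and 193, 199 and 195 with antigen. It was not called (limma adjusted p 0.821), but without IgE replicate 3, the highest library, its log2 change was 0.27 and was called (adjusted p 0.000182).

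**Figure D3:**
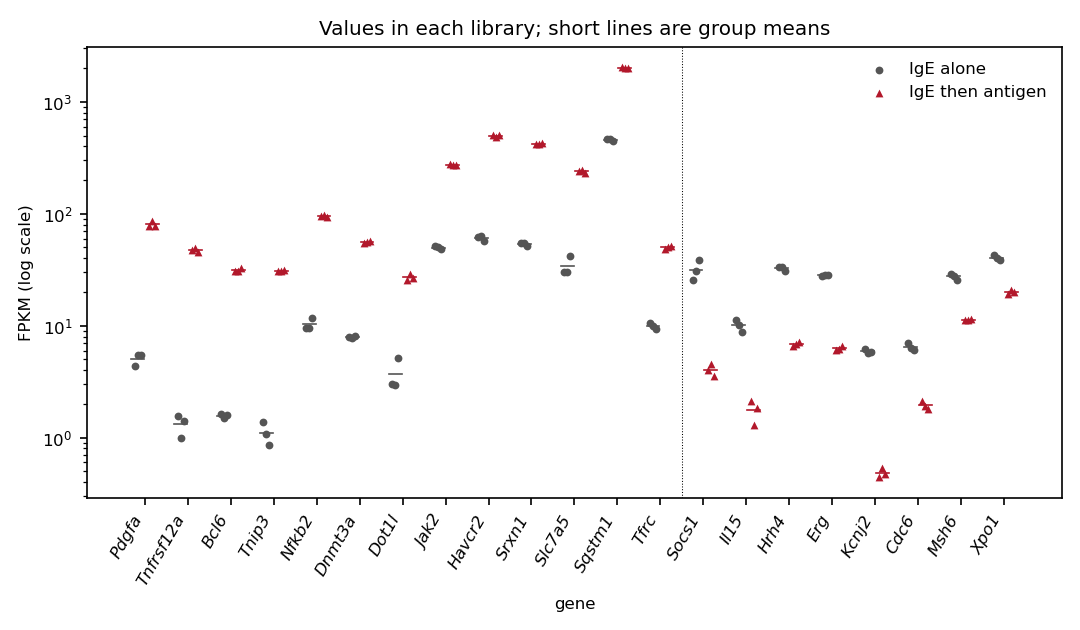
FPKM on a log scale in each of the 3 IgE and 3 antigen libraries for 21 genes, those that rose left of the dotted line and those that fell right of it. Each dot is 1 library. In all 21 genes the groups do not overlap, which the rule that picked them required. Over all tested genes 75.6% did not overlap.

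Enzymes that write or erase chromatin marks changed for a minority by 2-fold. Of 53 histone methylation and acetylation enzymes, 5 (9.43%) were at least 2-fold higher, near the background share of 7.57%. Dot1l, the methyltransferase of histone H3 lysine 79, was at 3.05, 2.95 and 5.10 FPKM with IgE and 25.5, 28.9 and 26.9 with antigen. IgE replicate 3 was the highest of its group and remained well under every antigen library (7.33-fold, limma adjusted p 2.85e-08). Kdm6b, the demethylase of histone H3 lysine 27, rose from 1.07 to 8.85 FPKM, and Ezh2, which places that mark, fell from 31.1 to 17.7. Of 34 tested genes of DNA methylation and base excision 13 rose and 16 fell, beside 38.1% and 36.0% of all tested genes. Dnmt3a, a de novo DNA methyltransferase, was at 7.86, 7.82 and 8.17 FPKM with IgE and 55.1, 56.5 and 57.4 with antigen, 7.09-fold higher (limma adjusted p 3.86e-12). Tet3, which oxidizes methylcytosine, rose 5.12-fold to 21.3 FPKM. Uhrf1, which brings the maintenance methyltransferase to replicated DNA, fell from 49.2 to 24.0 FPKM.

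The receptor's own signalling genes went both ways, as did all tested genes (38.1% higher, 36.0% lower). Of 40 tested, 20 rose and 13 fell, and 5 (12.5%) were at least 2-fold higher. The median of 0.11 turned to −0.07 with equal sums and −0.14 with quantile normalization. The kinases Fyn (10.6 to 26.6 FPKM) and Tec (18.0 to 47.9) rose. Pik3r5, a regulatory subunit of the PI3-kinase that answers G protein-coupled receptors, went from 0.152 to 2.89 FPKM. Pik3cd, a catalytic PI3-kinase subunit, was at 103, 106 and 124 FPKM with IgE and 44.2, 45.5 and 43.5 with antigen, 2.501-fold lower. Pag1, an adaptor that recruits the inhibitory kinase Csk, fell 3.27-fold to 3.70 FPKM. Syk, Btk, Vav1 and Grb2 were not called.

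Downstream, feedback regulators were among the largest rises of the MAP kinase list. Of its 46 tested genes 13 (28.3%) were at least 2-fold higher. Dusp5, a nuclear phosphatase of ERK with the paired CArG match above, was at 2.93, 3.48 and 4.25 FPKM and then 85.1, 78.1 and 84.6. Spry2, an inhibitor of the Ras pathway, rose 6.23-fold to 13.8 FPKM and Map2k3, which activates p38, 4.75-fold to 149, while the kinase gene Mapk3 had a log2 change of 0.26. Rgs16, which ends G protein signals, was at 0.233, 0.354 and 0.344 FPKM with IgE and 18.0, 16.6 and 16.1 with antigen. Rgs18 fell from 313 to 122 FPKM. Rapgef3, the cyclic AMP sensor Epac1, was at 2.64, 2.84 and 2.69 FPKM with IgE and 0.143, 0.161 and 0.216 with antigen, below 0.5 FPKM in every antigen library.

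Calcium and potassium channels moved with a few large members. Of 38 tested, 9 (23.7%) were at least 2-fold higher. Orai1, the pore of store-operated calcium entry, rose from 12.7 to 32.3 FPKM and the calcium sensor Stim2 from 10.8 to 35.1, while Stim1 had a log2 change of −0.34. Kcnn4, the calcium-activated potassium channel of mast cells, rose 3.58-fold to 240 FPKM. Kcnj2, an inward rectifier, was at 6.15, 5.67 and 5.83 FPKM with IgE and at 0.441, 0.535 and 0.477 with antigen, 12.2-fold lower. Of 48 phosphoinositide genes 11 (22.9%) were at least 2-fold higher and 4 (8.33%) at least 2-fold lower. The adaptor Pik3ap1 rose 7.30-fold to 11.7 FPKM and the phosphatase Mtmr4 fell 4.11-fold to 1.72.

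Survival and death genes rose on both sides of the balance. In the BCL2 and p53 list 19 of 39 rose and 16 fell, beside 38.1% and 36.0% of all tested genes. The median of 0.06 turned to −0.12 with equal sums and −0.04 with quantile normalization. Bcl2l11, which encodes the death promoter BIM, was at 3.17, 3.31 and 3.67 FPKM with IgE and 28.4, 29.9 and 30.5 with antigen. Pmaip1 (NOXA) rose 4.55-fold to 21.1 FPKM. The survival gene Bcl2a1d rose from 0.0480 to 5.18 FPKM, with reads of near-identical Bcl2a1 copies not told apart for certain, and Mcl1 had a log2 change of 0.99. Sesn3 fell 3.87-fold to 2.78 FPKM. Ago2, the slicer of RNA interference, rose 3.42-fold to 46.1 FPKM in a list of 44 RNA-decay genes of which 4 (9.09%) reached 2-fold.

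Of 36 tested granule genes 5 (13.9%) were at least 2-fold higher and 1 (2.78%) at least 2-fold lower. Hdc, which makes histamine from histidine, was at 30.3, 28.7 and 27.1 FPKM with IgE and 919, 863 and 902 with antigen. Tpsab1, a tryptase, rose from a mean of 3.77 to 207 FPKM. This rise is uncertain beside the near-identical Tpsb2, whose mean was 6256 FPKM with IgE and 7420 with antigen. Srgn, the core protein that carries granule glycosaminoglycans, rose from a mean of 5935 FPKM with IgE to 9184 with antigen. Gzmb (granzyme B) rose 1.67-fold to 2643 FPKM. Chst11, which sulfates chondroitin, was at 28.1, 30.2 and 30.1 FPKM with IgE and 176, 179 and 191 with antigen, and it lies in a run of 5 neighbouring genes on chromosome 10 that all passed 2-fold (Txnrd1, Eid3, Chst11, Slc41a2 and D10Wsu102e). Tpsb2 was 1.19-fold higher (limma adjusted p 0.0362, and up to 0.735 under the alternatives), and its value is uncertain beside the near-identical Tpsab1. Alox5, the enzyme that starts leukotriene synthesis, fell from 884 to 682 FPKM.

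Genes of membrane fusion were mostly steady in size, with 3 of 43 (6.98%) at least 2-fold higher, a share under the background. These were Stx11 (14.2 to 63.0 FPKM), Stx6 (16.1 to 55.8) and Sytl3 (26.7 to 87.0). The actin cytoskeleton rose more widely, 34 of 48 against 5 that fell, with 13 (27.1%) at least 2-fold higher. Plek, the protein kinase C substrate pleckstrin, was at 184, 173 and 161 FPKM with IgE and 992, 1022 and 1041 with antigen. Marcksl1, another such substrate, rose from 0.529 to 13.7 FPKM. Lmna, the nuclear lamin A gene, rose 4.50-fold to 505 FPKM, Tpm1 4.21-fold to 268 and the small GTPase Rhof 5.68-fold to 117. Actb rose from 3624 to 5790 FPKM.

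Amino acid supply with the ATF4 response was the metabolic list with the widest rise. Of 36 tested, 29 rose, 3 fell and 20 (55.6%) were at least 2-fold higher, with a median log2 change of 1.06, and of 0.89 with equal sums. Slc7a5, the large neutral amino acid transporter, was at 30.1, 30.1 and 41.7 FPKM with IgE and 243, 248 and 233 with antigen. IgE replicate 3 was the high one of its group and still far below the antigen libraries (7.11-fold, limma adjusted p 1.9e-09). Slc7a11, the cystine carrier whose promoter holds a pair of ATF4 matches, was at 1.28, 1.20 and 1.22 FPKM and then 17, 17.2 and 17.4. Asns, asparagine synthetase, rose 3.24-fold to 196 FPKM and Phgdh, the first enzyme of serine synthesis, 2.98-fold to 85.4. Of 23 aminoacyl tRNA synthetases 16 rose, led by Gars (72.5 to 194 FPKM) and Cars (18.8 to 50.2).

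Redox and iron genes rose in part. Of 41 tested 7 (17.1%) were at least 2-fold higher. Srxn1, sulfiredoxin, was at 55.0, 54.9 and 51.7 FPKM with IgE and 421, 424 and 428 with antigen, 7.88-fold higher (limma adjusted p 3.22e-12). The untreated mean was 34.6 FPKM. Haem oxygenase 1, Hmox1, rose 6.65-fold to 189.5 FPKM and Gclc, the rate-limiting enzyme of glutathione synthesis, 2.67-fold to 72.4. Tfrc, the transferrin receptor, was at 10.5, 9.98 and 9.30 FPKM with IgE and 48.3, 50.5 and 51.5 with antigen. Sqstm1, the autophagy receptor p62, reached 2029, 1990 and 1991 FPKM from 462, 466 and 445, the third largest gain in mean FPKM among called genes, after Srgn and Actb. No antigen library came near the IgE libraries in these genes.

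Nucleotide and polyamine synthesis went down more than up, 24 of 44 lower against 9 higher, with a median of −0.18 that became −0.35 with equal sums (31 lower, 7 higher) and −0.28 with quantile normalization (28 lower, 8 higher). Srm, spermidine synthase, was at 35.6, 38.4 and 40.1 FPKM with IgE and 13.9, 14.4 and 13.2 with antigen. Odc1, the enzyme one step earlier, went the other way, from 29.3 to 68.1 FPKM. Ctps (8.58 to 3.36 FPKM), Dctd (2.98 to 0.624) and Rrm2 (45.5 to 21.9) fell at least 2-fold. In glycolysis 1 of 37 genes (2.7%) passed 2-fold, the regulator Pfkfb3 (8.16 to 25.3 FPKM), and the median of 0.10 turned to −0.08 with equal sums and −0.18 with quantile normalization. Sterol and fatty acid genes fell in 18 of 40 and rose in 10, with 28 lower and 6 higher under equal sums and 26 lower and 6 higher under quantile normalization. Ero1l, which reoxidizes ER protein disulfide isomerase, rose 3.17-fold to 728 FPKM.

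**Figure D4:**
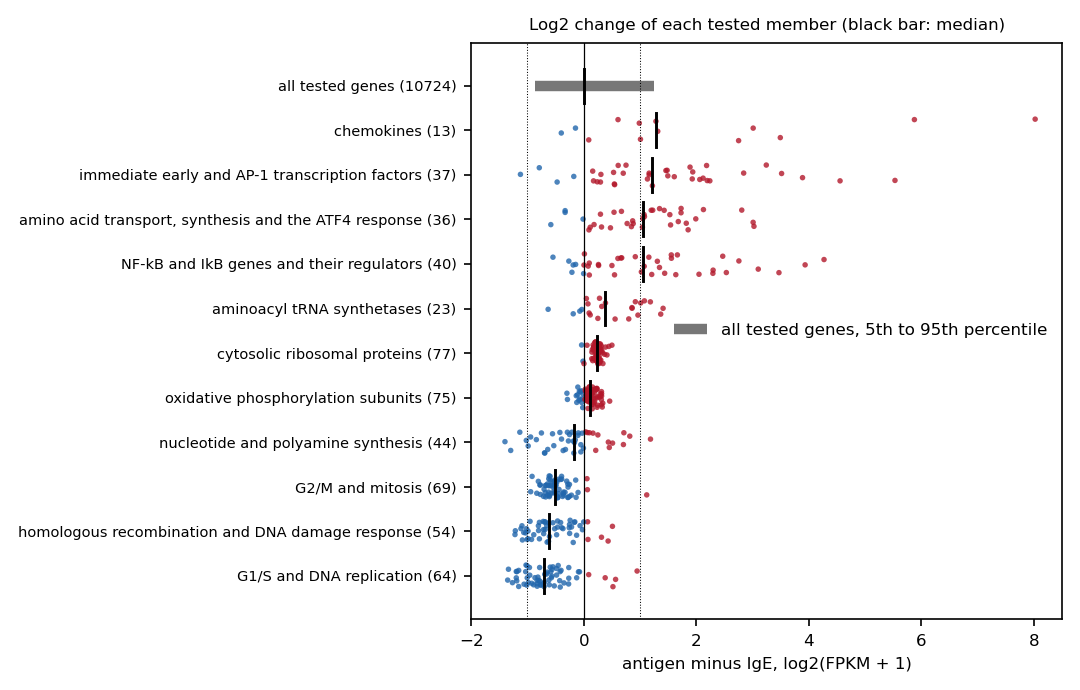
Log2 change (antigen minus IgE, log2(FPKM + 1) scale) of each tested member of 11 gene lists beside all 10724 tested genes, whose 5th to 95th percentile is marked. Bars are medians, which ran from −0.70 for G1/S and DNA replication to 1.22 for immediate early factors and 1.28 for chemokines, against 0.01 for all tested genes.

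Large housekeeping families changed little per gene, and the direction of some of them rested on the scale. Cytosolic ribosomal protein genes were called higher in 57 of 77 (median 0.24), but 7 were higher and 1 lower with equal sums and 2 higher and 7 lower with quantile normalization (median −0.03). Subunits of oxidative phosphorylation were higher in 28 of 75 and lower in 3, yet lower in 24 and higher in 8 with equal sums and lower in 43 and higher in 1 with quantile normalization. Mitochondrial ribosomal proteins were lower in 25 of 77 and higher in 14, against 47 lower and 4 higher with equal sums and 36 lower and 6 higher with quantile normalization. Genes listed as proteasome subunits were higher in 38 of 48 and lower in 6, with a median of 0.28. With equal sums 19 were higher and 9 lower, and with quantile normalization 13 were higher and 11 lower. Their median stayed above 0 under every scaling tried and was smallest with quantile normalization (0.01). Splicing factors (median 0.17) fell just below 0 with equal sums (−0.004) and to −0.06 with quantile normalization. Clusters of Hist genes, whose transcripts lack poly(A) tails for the most part and whose copies are near-identical, were lower in 12 of 57 and higher in 1. With equal sums 36 of them were lower and with quantile normalization 39.

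Cell division genes fell together. Of 64 tested G1/S and DNA replication genes 56 fell and 4 rose, with a median log2 change of −0.70, and 15 (23.4%) were at least 2-fold lower. Of 69 G2/M and mitosis genes 63 fell, with a median of −0.50, and the largest fall, that of the mitotic kinase gene Aurkb, was −0.94. Genes of homologous recombination and the DNA damage response fell in 45 of 54, and 9 (16.7%) were at least 2-fold lower. All 3 medians stayed below −0.5 under every scaling tried. Cdc6, which loads the replicative helicase and has the E2F match above, was at 6.99, 6.34 and 6.04 FPKM with IgE and 2.13, 1.91 and 1.82 with antigen (log2 change −1.34, SE 0.065, limma adjusted p 1.46e-08). Untreated cells were at 3.56 FPKM, between the 2 groups. Mcm3, part of that helicase, fell from 88.9 to 49.7 FPKM. Gmnn, the licensing inhibitor geminin, fell 2.73-fold to 8.90 FPKM and the kinase gene Cdc7 2.63-fold to 3.85. Untreated means of Gmnn (15.0 FPKM) and Cdc7 (6.88) also lay between the 2 groups. Aurkb was at a mean of 15.3 FPKM in untreated cells, 23.2 with IgE and 11.6 with antigen.

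Msh6, a mismatch repair gene, was at 29.3, 28.0 and 25.9 FPKM with IgE and 11.3, 11.3 and 11.4 with antigen. The damage kinase Atm fell 2.26-fold to 4.79 FPKM. Against the trend, Cenpa, the centromeric histone, rose 2.23-fold from 22.5 to 50.2 FPKM and was the single riser of its list. Ccnd2, cyclin D2, rose from 74.0 to 144 FPKM, and Pcna from 244 to 350. Nuclear transport genes were lower in 22 of 52 and higher in 17, with a median of 0.01 that turned to −0.15 with equal sums. The main export receptor Xpo1 was at 42.9, 40.3 and 38.5 FPKM with IgE and 19.2, 21.0 and 19.95 with antigen.

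**Figure D5:**
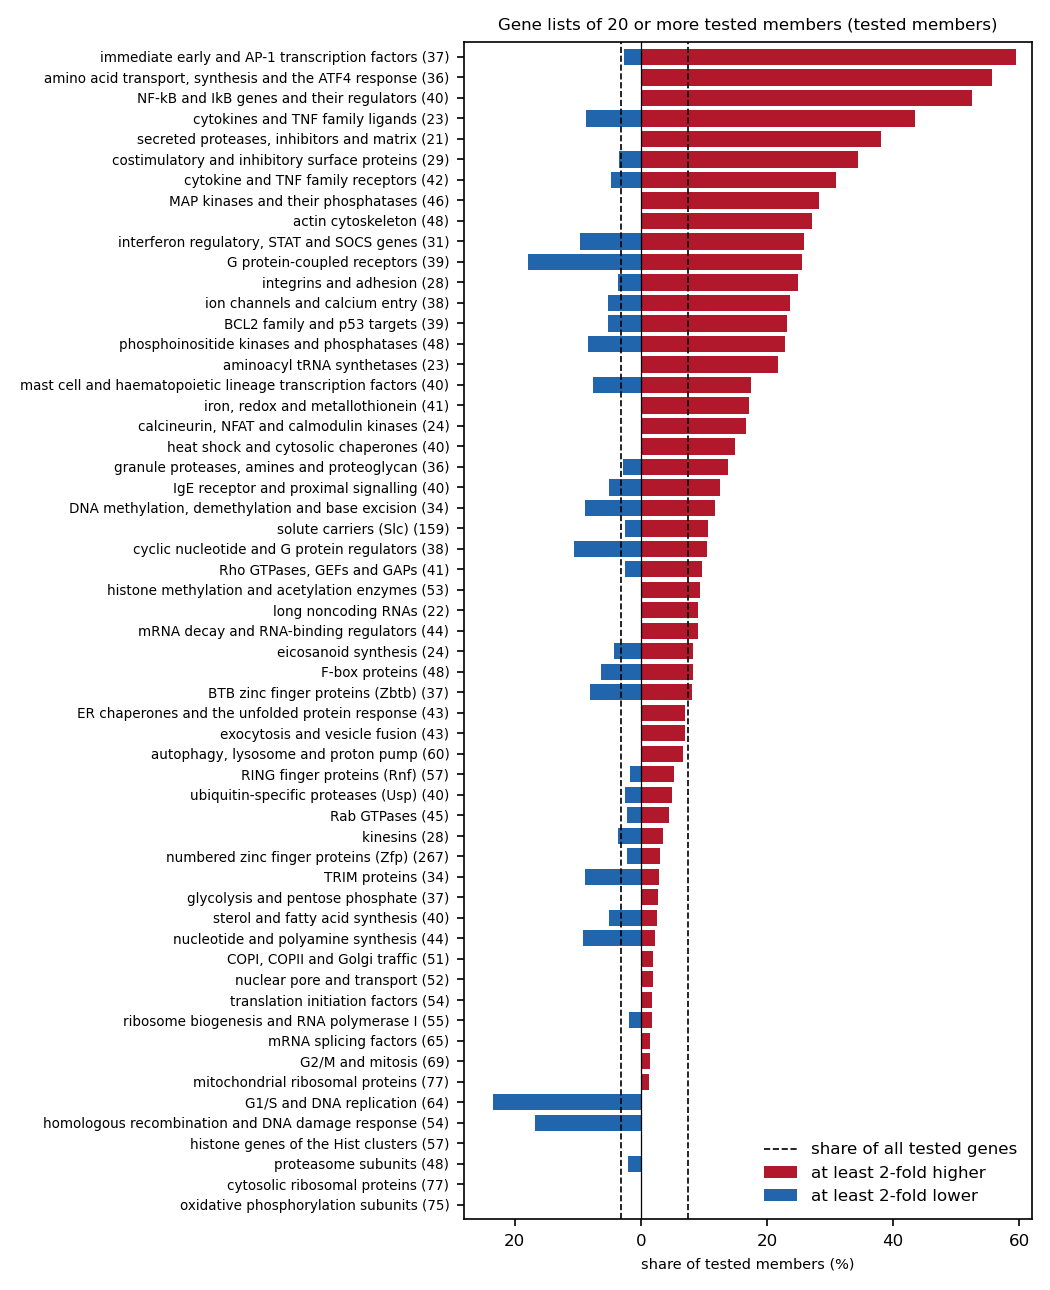
Share of tested members, in percent, called at least 2-fold higher (right) and at least 2-fold lower (left) with antigen for each gene list of 20 or more tested genes. Dashed lines mark the shares over all tested genes, 7.57% higher and 3.09% lower; immediate early factors reach 59.5% on the right and G1/S genes 23.4% on the left.

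Some genes passed from near absence to clear expression. Under 0.5 FPKM in all IgE libraries and at 2 FPKM or more in all antigen libraries were 40 genes, and the reverse held for 5. With limits of 0.2 and 1 FPKM the counts were 33 and 1, and with 1 and 5 FPKM 28 and 1. Olr1, a scavenger receptor for oxidized lipoprotein, was listed at 0, 0.0206 and 0 FPKM with IgE and at 11.5, 12.9 and 12.5 with antigen. Penk, the precursor of enkephalins, went from 0.0634 to 5.88 FPKM, Fst, the activin antagonist follistatin, from 0.0195 to 2.25, and Clcf1, a cytokine of the IL-6 family, from 0.0382 to 2.83. Beside Rapgef3, the genes passing the other way were Ppp1r3g (5.50 to 0.402 FPKM), Rwdd3 (2.83 to 0.315), Btnl9 (2.71 to 0.298) and Il5ra (2.64 to 0.286), the last being the specific chain of the IL-5 receptor.

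Large changes were found at all levels of expression. Of 267 tested genes under 1 FPKM with IgE, 130 (48.7%) were at least 2-fold higher, but these had passed the filter through the antigen libraries. Between 1 and 10 FPKM 346 of 4365 (7.93%) were at least 2-fold higher and 158 (3.62%) at least 2-fold lower. From 100 FPKM upwards 34 of 693 (4.91%) were higher and 8 (1.15%) lower by that margin. Mns1, a coiled-coil protein known from sperm tails, was the most abundant of the genes that fell at least 4-fold, from 299 to 63.3 FPKM. Median transcript length was 3.31 kb for all tested genes, 3.31 kb for genes at least 4-fold higher, 3.98 kb for those 2-fold to 4-fold higher and 3.23 kb for those at least 2-fold lower.

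Changed genes could be neighbours among the tested protein-coding genes of a chromosome. Of 10283 placed protein-coding genes that were tested, 784 were at least 2-fold higher. Of these 784, 185 stood next to another such gene, in 85 runs of which 13 held 3 or more genes. Of 314 at least 2-fold lower, 40 stood in 19 runs, and the chemokine receptor cluster was the single run of more than 2. Some runs would arise in a random order too, and whether these counts exceed that number was not tested. Rising runs included C5ar1 and C5ar2 with Dhx34 on chromosome 7, Orai1 and Rhof with Tmem120b on chromosome 5, Stat6 and Nab2 with Shmt2 on chromosome 10, and Clec4n, Clec4d and Clec4e on chromosome 6. Slc5a3, the inositol carrier, rose from 0.970 to 12.1 FPKM beside Mrps6, the sole mitochondrial ribosomal protein gene to pass 2-fold. Reads of overlapping neighbours cannot be told apart, since the strand and annotation used are not known.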

How the data were processed

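Total RNA of 9 libraries was sequenced, and the 6 libraries given IgE or IgE and antigen were compared. The submitters' processing notes name TopHat2 (2.0.12), Bowtie (0.12.7) and the mm9 build. The authors deposited FPKM values per gene symbol, with their program, gene models and strandedness not given in the sources used here. Depth was therefore estimated from the steps of low FPKM values in 2966 genes with 1 transcript. The test was limma (3.58.1, R 4.3.3) on log2 values after adding a pseudocount of 1, with a trended prior, 1 coefficient per group and no covariate; all 9 libraries shared the spread. Tests were two-sided, with Benjamini-Hochberg adjustment over 10724 genes. A gene was called at an adjusted p under 0.05. The test was checked on simulated data.

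The members and the 63 gene lists (3687 entries, 2886 tested) were chosen with earlier results of these data known. A rule picked 311 genes. It took up to 4 called, non-overlapping members of each list with the largest log2 change and the 10 largest gains and losses in FPKM. It also took the 10 largest and smallest ratios, switched genes and cell markers. Gains, losses and ratios were ranked among called, non-overlapping genes too, so a lack of overlap in these genes was set by the rule. Not all of these genes are described above, so the genes described need not be the most changed of their list. Other genes named were chosen after their values were seen. Alternatives changed the pseudocount, filter, scaling, prior, libraries in the fit, replicate block, X and Y zeros and each library in turn. Promoter windows of 250 bases were matched by symbol, and the mm9 coordinates of the genes were not used.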

Additional observations from a re-analysis of the deposited data

How the results depend on the processing

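Of the 311 genes picked by the rule, 286 kept their direction and their side of the threshold under all 19 alternatives. In at least 1 alternative 15 lost and 6 gained a call, and 11 changed sign. Of these 11, 7 were called, and Kit, Gata2, Il3ra and S100a8 were not. With the X and Y zeros of antigen replicate 3 kept as values, Acsl4 (−0.51), Cox7b (−1.99), Gla (−0.32) and Tmsb4x (−3.18) changed sign. Quantile normalization turned Ifitm1 (−0.11), Kit (−0.27), Il1rl1 (−0.011) and Itga2b (−0.26), and equal sums turned Itga2b (−0.059). With equal sums 2646 genes were higher and 532 were at least 2-fold lower, and 626 of the 812 genes at least 2-fold higher (77.1%) remained so. A pseudocount of 0.1 gave 612 genes at least 2-fold lower, 319 at least 4-fold higher and 55 at least 4-fold lower. That last count was 30 with a pseudocount of 0.5 and 23 with equal sums. The genes passing from 2 FPKM to under 0.5 numbered 1 under either other pair of limits. Leaving out 1 library at a time gave 3850 to 4150 higher, 3635 to 4019 lower, 791 to 844 at least 2-fold higher, 323 to 339 at least 2-fold lower, 186 to 193 at least 4-fold higher and 13 to 19 at least 4-fold lower. Without IgE replicate 3 and antigen replicate 3 together, an alternative added after seeing the data, 844 were at least 2-fold higher and 344 lower. With the replicate block in the fit 4037 genes were higher and 3829 lower, 813 and 332 by at least 2-fold. The labels share only the numbers: same-numbered deviations from the group means correlated at −0.152, −0.208 and 0.016 over 8866 genes and differently numbered ones at −0.208 to 0.365, and no library correlated best with its own number. Apart from these constructions the cause of each shift was not tested.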

Other observations

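Several genes known to be inducible by interferons, picked after their values were seen, were lower with antigen. Usp18, which removes ISG15 from proteins, was at 11.75, 11.97 and 11.64 FPKM with IgE and 3.95, 3.78 and 3.65 with antigen (log2 change −1.42, SE 0.058, limma adjusted p 4.12e-09). The transcription factor Irf1 fell from 21.9 to 8.91 FPKM, the immunity-related GTPases Igtp from 7.86 to 2.91, Irgm2 from 5.83 to 2.10 and Ifi47 from 18.1 to 7.21, and the immunoproteasome subunit Psmb9 from 49.7 to 24.1. Oas1a (1.54-fold) and Trim30a (1.59-fold) were lower by less than 2-fold. Others went the other way, Gbp3 from 1.06 to 6.27 FPKM, Irf5 from 6.30 to 52.4 and Ifitm2 from 1213 to 1948, and Irf9, Isg15 and Gbp2 were not called. Since these genes were picked for how they moved, their number carries no test.

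Long noncoding RNAs mostly stayed near their IgE level. Of 37 listed, 22 were tested, and 9 rose and 3 fell (6 and 6 with equal sums). Mir22hg, the host transcript of miR-22, was the largest riser at 25.1 against 4.99 FPKM. Neat1, the scaffold of paraspeckles, rose from 221 to 461 FPKM.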
